A study of Mus musculus with 12 samples.

Results

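V(D)J recombination cuts and rejoins gene segments to build antibody and T cell receptor genes, and 9 genes that encode its enzymes are described here in mouse fetal liver progenitors. They are Rag1, Rag2, Dntt, Xrcc5, Xrcc6, Prkdc, Dclre1c, Xrcc4 and Lig4, chosen by symbol, and all 9 were found among the 23420 genes of the expression table. The RAG1 and RAG2 proteins together form the recombinase, which cuts DNA beside recombination signal sequences and leaves hairpin-sealed coding ends. The Ku heterodimer (Ku80 from Xrcc5 and Ku70 from Xrcc6) binds the ends, the kinase DNA-PKcs (Prkdc) activates the nuclease Artemis (Dclre1c) that opens the hairpins, and XRCC4 with DNA ligase IV (Lig4) seals them. Terminal transferase (Dntt) adds untemplated nucleotides at the junctions and is known to be low or absent in mouse fetal lymphocytes. The end-joining proteins also repair breaks in cells that do not recombine, whereas Rag1 and Rag2 are largely restricted to developing lymphocytes.

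RNA was measured in 12 libraries of 100 sorted cells each, with 3 libraries in each of 4 groups: PIR+ KO, PIR+ wt, PIR- KO and PIR- wt. PIR is the paired immunoglobulin-like receptor of the sort, and all cells were sorted as negative for lineage markers and positive for c-Kit. The labels call 6 libraries KO without naming the gene that was removed, so the targeted gene could not be looked up. Nothing in the labels states that replicates are separate animals. Every p-value therefore rests on the spread between these samples, which may be technical. The limma p-values also draw on the spread of the other genes in the fit. The groups are those of the sample titles. In 6 of the 12 libraries the field for sorted markers carries the other PIR sign, and the source name gives embryonic day E12.5 wherever that field says PIR+ and day E14.5 wherever it says PIR-. The series title names day E12.5 alone. Pira1, Pira2 and Lilrb3, the genes of the receptor, were listed at 0 in all 6 libraries titled PIR- and above 0 in all 6 titled PIR+. Kit, the gene of the sort marker c-Kit, averaged 46.1 in PIR+ KO, 43 in PIR+ wt, 25 in PIR- KO and 21.1 in PIR- wt, and Il7r, for which the labels disagree on the sign in PIR- cells, was above 0 in all 12 libraries. In 5 libraries the hemoglobin gene Hba-a1 reached 359.6 to 604.1, against 8.2 to 62.6 in the other 7. These 5 globin-rich libraries are 1 of PIR+ KO, 1 of PIR+ wt, 1 of PIR- KO and 2 of PIR- wt. Values are normalized molecule counts as the authors deposited them, and their sum per library was 203135 to 284648 in the PIR+ libraries, against 155374 to 222700 in the PIR- libraries. Because of that difference in sums, the median of the 4542 genes tested was itself higher in PIR+ libraries, by 0.39 (log2) in KO and 0.51 in wild type, so fold changes are given on the deposited scale and again after median-of-ratios scaling, which brings the median gene close to 0.

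The promoter windows of 4 of the genes are shown because Rag1, Rag2 and Xrcc5 gave the fold changes that passed the test, and because Dntt was listed at 0 in every library. Each window runs from 250 bases before to 50 bases after the RefSeq start (GRCm38.p6), reads 5′ to 3′ on the gene's own strand and has CANNTG, the E-box letters, in capitals.
Rag1 (chr2:101649483-101649782, minus strand): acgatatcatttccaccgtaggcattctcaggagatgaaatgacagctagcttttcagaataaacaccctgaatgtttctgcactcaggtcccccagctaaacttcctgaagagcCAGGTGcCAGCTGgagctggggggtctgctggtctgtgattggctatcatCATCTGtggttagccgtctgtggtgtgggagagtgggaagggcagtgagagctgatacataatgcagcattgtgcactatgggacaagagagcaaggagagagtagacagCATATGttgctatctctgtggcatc
Rag2 (chr2:101624462-101624761, plus strand): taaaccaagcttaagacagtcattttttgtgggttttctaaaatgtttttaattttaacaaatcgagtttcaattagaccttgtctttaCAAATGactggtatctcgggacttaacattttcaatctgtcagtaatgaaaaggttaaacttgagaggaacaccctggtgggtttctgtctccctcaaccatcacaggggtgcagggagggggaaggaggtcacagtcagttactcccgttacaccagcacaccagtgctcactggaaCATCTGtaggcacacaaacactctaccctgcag
Dntt (chr19:41029025-41029324, plus strand): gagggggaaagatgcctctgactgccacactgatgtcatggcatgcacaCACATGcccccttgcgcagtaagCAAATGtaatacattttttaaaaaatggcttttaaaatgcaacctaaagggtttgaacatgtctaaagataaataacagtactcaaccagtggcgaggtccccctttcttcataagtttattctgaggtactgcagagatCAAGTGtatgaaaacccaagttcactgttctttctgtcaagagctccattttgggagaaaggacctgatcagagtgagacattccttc
Xrcc5 (chr1:72307171-72307470, plus strand): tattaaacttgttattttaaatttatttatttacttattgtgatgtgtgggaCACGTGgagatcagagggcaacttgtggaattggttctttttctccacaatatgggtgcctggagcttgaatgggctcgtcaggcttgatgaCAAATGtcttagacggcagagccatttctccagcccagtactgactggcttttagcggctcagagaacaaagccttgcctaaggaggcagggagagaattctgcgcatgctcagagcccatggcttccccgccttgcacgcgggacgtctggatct

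The RefSeq table held a window for 8 of the 9 genes. The Rag1 window had 4 CANNTG matches, at positions -135, -128, -85 and 26 counted from the start base as 1, and the Rag2 window had 2, at -161 and 18. Dntt had 3 matches and Xrcc5 had 2, and 72.3% of the 32851 windows in the table hold at least 1, so that holding one is common. The stricter E-box CAGGTG, searched on both strands and always also a CANNTG match, occurred in the Rag1 window alone of the 8 genes, at -135, and in 20.2% of all windows. TATAAA was in none of the 8 genes' windows on either strand and in 13.6% of all windows. A match is a string of letters and is not a measured binding site. The windows of the lymphocyte-restricted genes were poor in CG dinucleotides. The observed over expected CG ratio was 0.165 for Rag1, 0.216 for Rag2 and 0.149 for Dntt, values that 23.3%, 31.2% and 20.8% of all windows did not exceed. The repair genes had higher ratios, 0.505 for Dclre1c, 0.527 for Xrcc5, 0.857 and 0.938 for the 2 windows of Lig4, 0.97 for Xrcc4 and 1.04 for Xrcc6.

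Rag1 and Rag2 lie tail to tail on chromosome 2 of GRCm38. Rag2 covers 101624718 to 101632529 on the plus strand and Rag1 covers 101638282 to 101649501 on the minus strand, with 5752 bases between their ends. Both sit inside the annotated span of B230118H07Rik (101560781 to 101649532, minus strand), whose first base is also the RefSeq start of the Rag1 window. That gene was at 2.4 to 7.3 in the PIR+ libraries and 1.1 to 5.9 in the PIR- libraries, so the low values of Rag1 in PIR+ cells did not come with low values of that gene. B230118H07Rik lies on the strand of Rag1 and opposite Rag2, so strand alone would not part its reads from those of Rag1. Whether counting used strand is not given in the sources used here, so reads from genes that overlap on opposite strands cannot be told apart. The same holds for Xrcc6 with Desi1, Dclre1c with Suv39h2, and Xrcc4 with Tmem167 and Gm4117, which overlap on opposite strands.

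Rag1, the catalytic subunit of the recombinase, was lower in PIR+ than in PIR- cells in both genotypes. It was 26.7, 14.2 and 13.7 in the PIR+ KO libraries and 27.3, 9.9 and 21.7 in the PIR+ wt libraries. It was 64.6, 68.0 and 88.2 in the PIR- KO libraries and 56.2, 58.9 and 87.7 in the PIR- wt libraries. The highest PIR+ library (27.3) lay below the lowest PIR- library (56.2), and 2.40% of the genes tested had all 6 PIR+ libraries below all 6 PIR- libraries. The mean was 18.2 ± 7.37 in PIR+ KO, against 73.6 ± 12.8 in PIR- KO, and 19.6 ± 8.88 in PIR+ wt, against 67.6 ± 17.5 in PIR- wt (SD, n = 3 each), so PIR+ cells held 24.7% of the PIR- level in KO and 29% in wild type. In limma, the log2 fold change of PIR+ over PIR- was -2.01 ± 0.24 (SE) in KO with an adjusted p of 3.95e-11 and -1.81 ± 0.24 in wild type with an adjusted p of 1.05e-09. After median-of-ratios scaling it was -2.39 in KO and -2.31 in wild type, with adjusted p of 6.12e-08 and 6.66e-08 in limma. Within libraries of day E12.5 it was -2.16 in KO and -2.05 in wild type, and within day E14.5 it was -1.93 in KO and -1.33 in wild type, each called by limma (largest adjusted p 0.00966). Day E12.5 in KO and day E14.5 in wild type hold 1 library on each side, so these 2 values rest on single libraries, assumed to vary like the others. With no filter on low values, limma gave Rag1 the same fold changes, with adjusted p of 8.26e-05 in KO and 0.000173 in wild type. In the authors' deposited table, the DESeq2 p-value of Rag1 for PIR+ against PIR- in wild type is 2.37e-09.

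The Rag1 level stood beside a larger difference in B cell genes. The summed level of 9 B lineage markers, among them Cd79a, Igll1 and the Vpreb genes, was 12.8 to 24.4 in PIR+ KO, 25.0 to 35.5 in PIR+ wt, 638.7 to 981.6 in PIR- KO and 763.8 to 1021.0 in PIR- wt libraries. The PIR+ sum was thus 2.85% of the PIR- sum, where Rag1 in PIR+ cells was 26.8% of its PIR- level. Vpreb2 and Pax5 were listed at 0 in all 6 PIR+ libraries, Vpreb1 in 5, Igll1 in 4, and Cd79a, Vpreb3 and Blnk in 2 each. Cd79b and Ebf1 were above 0 in all 6, as Rag1 was, with an estimated 181 molecules of Rag1 over the 6. Cd79b made up much of the PIR+ sum, with means of 16.6 in PIR+ KO and 16.2 in PIR+ wt, against 95.6 in PIR- KO and 103 in PIR- wt. The T lineage list summed to 3.0 to 6.1 in PIR+ KO, 10.8 to 16.4 in PIR+ wt, 0.0 to 4.4 in PIR- KO and 1.5 to 3.9 in PIR- wt. Of that list Cd3e, Cd3d, Cd8a and Bcl11b were listed at 0 in all 12 libraries, which may be absence or rows that counting left empty. Cd3g was at 0 in 5 PIR+ and all 6 PIR- libraries, and Cd4 in 3 PIR+ and 4 PIR- libraries. Lck and Gata3 of that list were above 0 in all 6 PIR+ libraries. Lck averaged 1.43 in PIR+ KO and 8.97 in PIR+ wt, against 0.867 in PIR- KO and 1.8 in PIR- wt, and Gata3 averaged 2.1 in PIR+ KO and 3.27 in PIR+ wt, against 0.233 in PIR- KO and 0.267 in PIR- wt. The list of stem and multipotent progenitor markers moved the other way, with sums of 293.7 to 367.4 in PIR+ KO, 252.6 to 322.1 in PIR+ wt, 57.3 to 74.9 in PIR- KO and 32.7 to 40.8 in PIR- wt. The part of these cell types in the Rag1 result was not tested, and in tubes of 100 cells fewer expressing cells and less RNA per cell cannot be told apart.

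Rag2, the regulatory subunit of the recombinase, was lower in PIR+ wt than in PIR- wt. In KO the PIR+ and PIR- libraries overlapped on the deposited scale but not after scaling. It was 12.1, 10.5 and 11.5 in the PIR+ wt libraries, against 18.6, 32.5 and 23.3 in the PIR- wt libraries, which do not overlap. Values that did not overlap in this direction were found for 4.36% of the genes tested. It was 17.6, 13.7 and 22.1 in the PIR+ KO libraries, against 19.1, 17.3 and 23.5 in the PIR- KO libraries. The mean was 11.4 ± 0.808 in PIR+ wt, against 24.8 ± 7.07 in PIR- wt, a ratio of 45.8%, and 17.8 ± 4.2 in PIR+ KO, against 20 ± 3.19 in PIR- KO, a ratio of 89.1% (SD, n = 3 each). The log2 fold change of PIR+ over PIR- was -1.03 ± 0.26 in wild type (limma, adjusted p 0.00113) and -0.17 ± 0.26 in KO (limma, adjusted p 0.636). After scaling it was -1.52 in wild type (limma, adjusted p 3.6e-06) and -0.55 in KO (limma, adjusted p 0.0838). The scaled values were 15.06, 12.73 and 15.52 in PIR+ KO, against 23.68, 19.16 and 22.12 in PIR- KO, which do not overlap. How many of all genes separate in this way after scaling was not counted. The authors' deposited table gives a DESeq2 p-value of 7.78e-06 for Rag2 in wild type.

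The wild-type call for Rag2 was lost where libraries PIR- wt 2 and 3 were left out. Without the globin-rich libraries the fold change was -0.68 (limma, adjusted p 0.258), in the 6 libraries where field and title match it was -0.68 (adjusted p 0.18), and within day E14.5 it was -0.65 (adjusted p 0.196). Each of these leaves PIR- wt 1 as the lone PIR- wt library, and day E14.5 also leaves PIR+ wt 3 alone in its group, each assumed to vary like the others. Within day E12.5 the fold change was -1.22 (limma, adjusted p 0.00753). The value of PIR- wt 1 (18.6) still lay above all 3 PIR+ wt libraries. Over all alternatives run, the adjusted p of this call ran between 3.6e-06 and 0.258.

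Rag1 and Rag2 did not keep 1 ratio to each other across the libraries. Rag1 divided by Rag2 was 1.52, 1.04 and 0.62 in PIR+ KO and 2.26, 0.943 and 1.89 in PIR+ wt. The ratio was 3.38, 3.93 and 3.75 in PIR- KO and 3.02, 1.81 and 3.76 in PIR- wt. The 3 PIR+ KO libraries lay below all 6 PIR- libraries, and the only overlap came from PIR- wt 2, whose Rag2 value (32.5) was the highest of all 12. The ratio describes how the 2 genes moved against each other between libraries and is not a comparison of their absolute levels.

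**Figure D1:**
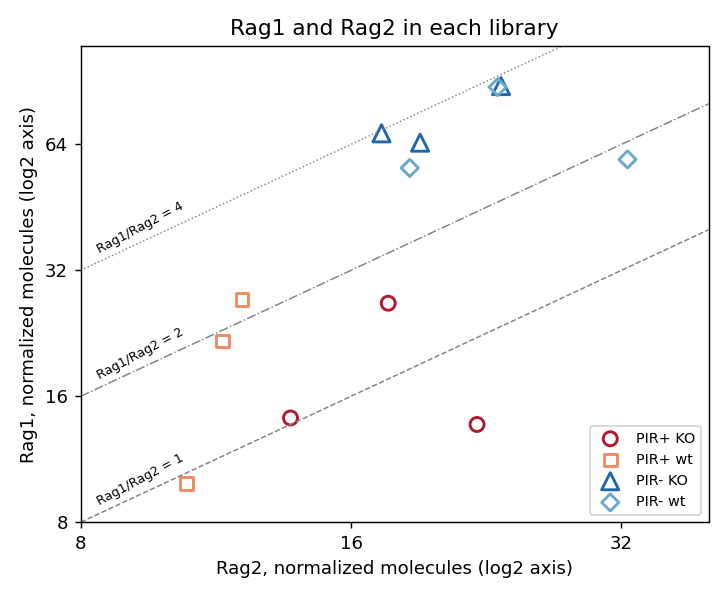
Each point is 1 library, with the Rag2 value on the x axis and the Rag1 value on the y axis, both in normalized molecules on log2 axes, and the lines mark equal ratios of the 2 values. The 6 PIR+ libraries lie at Rag1 values up to 27.3 and the 6 PIR- libraries at 56.2 or more, and the PIR+ KO libraries lie to the right of the PIR+ wt libraries (Rag2 of 13.7 to 22.1, against 10.5 to 12.1).

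Over the 12 libraries the patterns of Rag1 and Rag2 were closest to different genes, by Pearson correlation of log2(value + 1) among the genes tested. For Rag1 the 5 highest were Blnk (0.970), Nedd9 (0.965), Cd24a (0.953), Vpreb3 (0.952) and 1700048O20Rik (0.946), and Rag2 came 162nd with 0.646. For Rag2 they were Spc25 (0.955), 1190002F15Rik (0.902), Pla2g12a (0.901), Hmgb2 (0.896) and Neil3 (0.861). Blnk averaged 0.667 in PIR+ KO, 1.73 in PIR+ wt, 47.6 in PIR- KO and 46.8 in PIR- wt, whereas Spc25 averaged 20.3 in PIR+ KO, 10.1 in PIR+ wt, 20.5 in PIR- KO and 26.1 in PIR- wt. Libraries of one group share their sort and genotype, and depth and globin message vary between libraries for all genes at once, so these coefficients are a description.

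Dntt was listed at 0 in all 12 libraries, and the authors' deposited table gives it no p-value. Foxo3, a broadly expressed gene of the transcription factor list, was also listed at 0 in all 12. Whether a 0 throughout is a measured absence or a row that counting left empty cannot be told from the table, so no limit on the Dntt level and no fold change are given.

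Of the 2 genes for the Ku heterodimer, Xrcc5 was higher in PIR+ wt than in PIR- wt on the deposited scale. It was 12.7, 9.2 and 7.5 in the PIR+ wt libraries, against 3.2, 3.9 and 3.9 in the PIR- wt libraries, with no overlap. Values that did not overlap in this direction were found for 47.6% of the genes tested. In KO it was 7.3, 7.8 and 13.7 in the PIR+ libraries, against 10.1, 4.6 and 4.4 in the PIR- libraries, where PIR- KO 1 lay within the PIR+ range. The mean was 9.8 ± 2.65 in PIR+ wt, against 3.67 ± 0.404 in PIR- wt, and 9.6 ± 3.56 in PIR+ KO, against 6.37 ± 3.23 in PIR- KO (SD, n = 3 each). The log2 fold change of PIR+ over PIR- was 1.19 ± 0.37 in wild type (limma, adjusted p 0.00658) and 0.56 ± 0.37 in KO (limma, adjusted p 0.241). After scaling the wild-type value was 0.76 (limma, adjusted p 0.132) and was not called, and within day E14.5 it was 1.02 (adjusted p 0.186). Over all alternatives run, its adjusted p ran between 0.00546 and 0.186 in wild type and between 0.0477 and 0.812 in KO. Xrcc5 rested on an estimated 46 molecules in PIR+ KO, 45 in PIR+ wt, 33 in PIR- KO and 16 in PIR- wt, and the authors' deposited table gives it a DESeq2 p-value of 0.144 in wild type.

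Xrcc6, which encodes the other Ku subunit, was not called between PIR+ and PIR- cells of either genotype. It was 22.4, 16.6 and 19.8 in PIR+ KO and 26.0, 21.0 and 21.7 in PIR+ wt. The PIR- values were 15.9, 21.9 and 19.1 in KO and 32.3, 15.5 and 30.3 in wild type, and the groups overlapped in both genotypes. The log2 fold change of PIR+ over PIR- was 0.05 ± 0.25 in KO (limma, adjusted p 0.904) and -0.12 ± 0.25 in wild type (limma, adjusted p 0.709). After scaling it was -0.34 in KO (limma, adjusted p 0.379) and -0.61 in wild type (limma, adjusted p 0.0533), and the value averaged over both genotypes was -0.47 (limma, adjusted p 0.0263), against -0.04 (adjusted p 0.875) on the deposited scale. The sign in KO thus turned with the scaling, and the authors' deposited table gives a DESeq2 p-value of 0.0341 for wild type.

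Prkdc, the DNA-PKcs gene, was present in every library and passed a value of 10 in 1 of them, so it was not among the genes tested. It was 7.9, 7.3 and 10.6 in the PIR+ KO libraries, against 3.7, 4.6 and 5.1 in the PIR- KO libraries, with no overlap. In this direction 35.7% of the genes tested did not overlap. In wild type it was 2.5, 5.9 and 7.5 in the PIR+ libraries, against 1.6, 4.6 and 3.1 in the PIR- libraries, which overlapped. In a fit of all genes above 0, its log2 fold change averaged over genotype was 0.70 ± 0.28 (limma, adjusted p 0.068), beside a median gene higher by 0.45 among the genes tested.

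Dclre1c, the Artemis gene, was not called in any comparison. It was 19.0, 18.3 and 32.3 in PIR+ KO, 17.5, 21.6 and 23.7 in PIR+ wt, 18.9, 15.7 and 23.0 in PIR- KO and 17.4, 13.9 and 20.6 in PIR- wt. The ranges overlapped in every comparison, and the PIR+ mean was 1.21 times the PIR- mean in each genotype. The log2 fold change of PIR+ over PIR- was 0.23 ± 0.26 in KO (limma, adjusted p 0.51) and 0.27 ± 0.26 in wild type (limma, adjusted p 0.386). After scaling both had the opposite sign, -0.16 in KO and -0.22 in wild type, and neither was called.

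The ligase pair was near the limit of counting. Xrcc4 was 3.0, 2.4 and 1.5 in PIR+ KO, 0.6, 0.7 and 2.0 in PIR+ wt, 1.6, 3.5 and 2.9 in PIR- KO and 1.6, 2.3 and 4.7 in PIR- wt. Lig4 was 2.4, 1.5 and 2.3 in PIR+ KO, 3.2, 2.0 and 2.0 in PIR+ wt, 2.6, 2.3 and 2.9 in PIR- KO and 3.7, 3.1 and 6.2 in PIR- wt. Over all 12 libraries these values stand for an estimated 42 molecules of Xrcc4 and 53 of Lig4, where 1 molecule is worth 0.49 to 0.776. Both genes were above 0 in every library and at or above 10 in none. The fit of all genes above 0 called neither in any comparison.

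**Figure D2:**
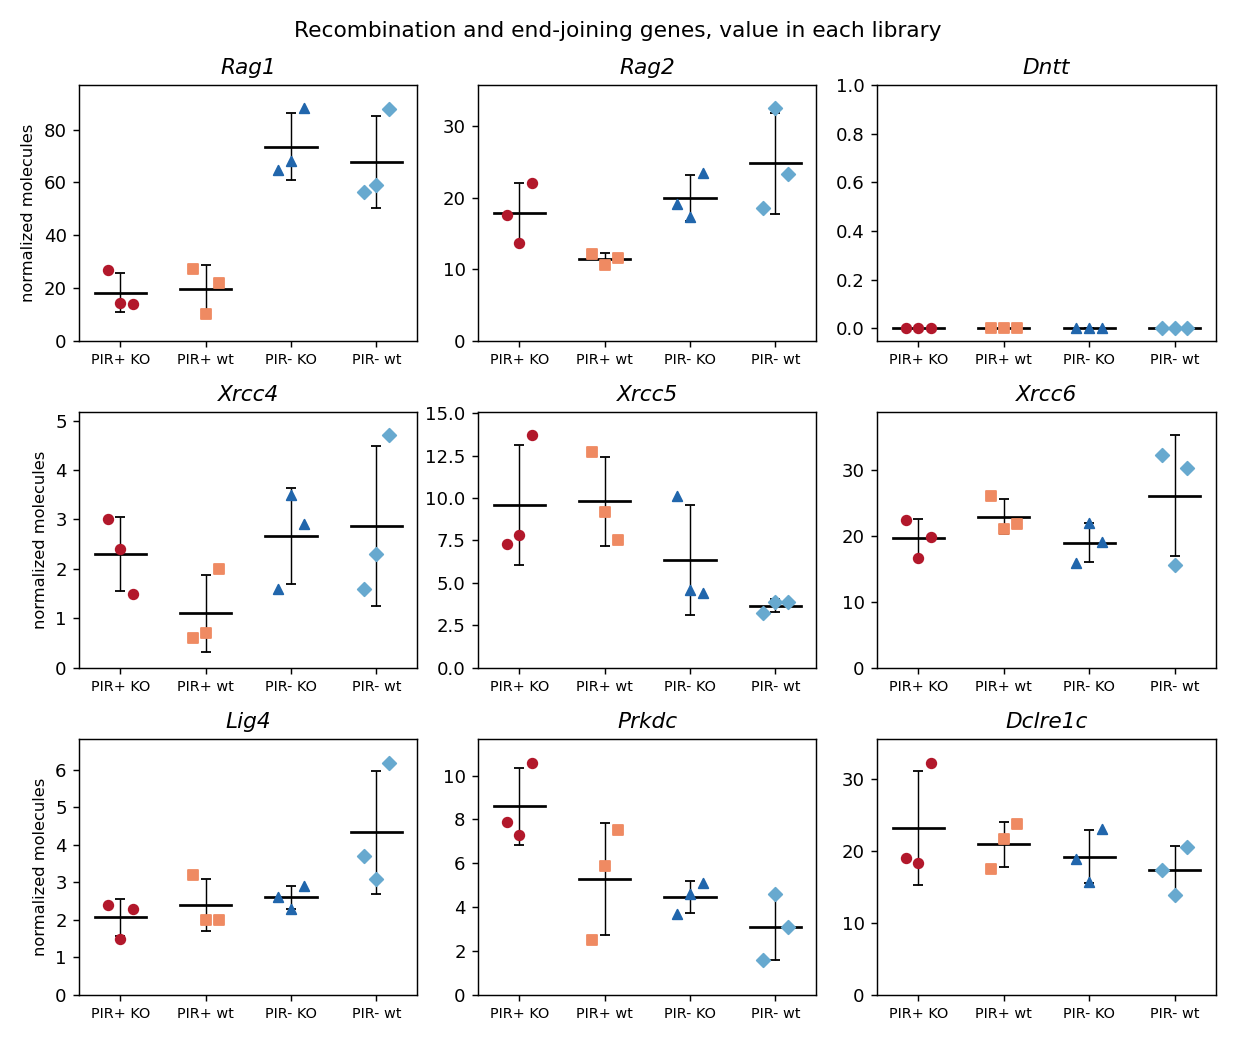
Value of each of the 9 genes in every library, in normalized molecules on a linear y axis that differs between panels, with 1 point per library and bars for the group mean and SD (n = 3). In the Rag1 panel the PIR+ points reach 27.3 and the PIR- points start at 56.2, Dntt is at 0 throughout, and Xrcc4 and Lig4 stay below 10.

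Counted together, 5 of the 9 genes passed the filter on low values (10 or more in at least 3 libraries): Rag1, Rag2, Xrcc5, Xrcc6 and Dclre1c. In KO, PIR+ against PIR- gave 1 call among the 5, with Rag1 lower, where 25.5% of all genes tested were called (22.5% higher and 2.97% lower). In wild type it gave 3 calls, with Rag1 and Rag2 lower and Xrcc5 higher, where 44.4% of all genes were called, 40.6% higher and 3.72% lower. The median log2 fold change of the 5 was 0.05 in KO and -0.12 in wild type, beside 0.39 and 0.51 for all genes tested. After scaling, Rag1 in KO and both Rag genes in wild type were called lower. On that scale 8.12% of all genes were called higher and 7.51% lower in KO, and 11.5% higher and 11.0% lower in wild type. Averaged over genotype, Rag1 (-1.91 ± 0.17), Rag2 (-0.60 ± 0.19) and Xrcc5 (0.87 ± 0.26) passed with adjusted p of 1.46e-17, 0.00476 and 0.00311 in limma. After scaling the Xrcc5 average was 0.48 and was not called (limma, adjusted p 0.16), nor was it within day E12.5 (0.84, adjusted p 0.0543) or day E14.5 (0.83, adjusted p 0.0789). In the scaled average Xrcc6 was called lower (-0.47, limma, adjusted p 0.0263), beside Rag1 and Rag2. Of all genes, 59.6% were called in the average on the deposited scale, 55.0% higher and 4.58% lower. After scaling 15.4% were called higher and 14.2% lower.

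**Figure D3:**
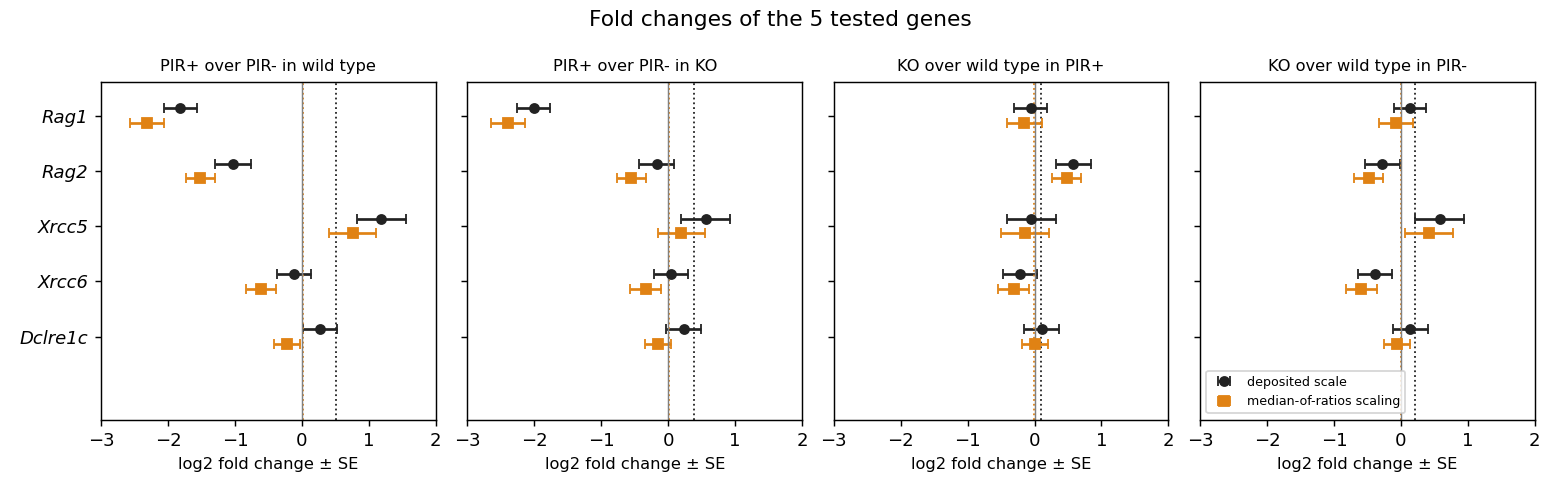
Log2 fold change with its SE (horizontal bars) from limma for the 5 tested genes, in 4 panels, 1 per comparison, on the deposited scale (black circles) and after median-of-ratios scaling (orange squares). Dotted lines mark the median of all genes tested on each scale. Rag1 lies at -2.39 to -1.81 in both PIR comparisons, and no gene passed the test in the comparisons of KO with wild type.

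KO against wild type gave no call among the 5 tested genes in either subset by limma. At an unadjusted p under 0.05 there was 1 gene in PIR+ cells, Rag2, and 0 in PIR- cells. The share of all genes at that unadjusted p was not counted, and the shares below are for adjusted p. After scaling there was again no call, with Rag2 at 0.48 in PIR+ cells (unadjusted p 0.0338, adjusted p 0.449, limma), and Rag2 at -0.48 (unadjusted p 0.0337, adjusted p 0.354) and Xrcc6 at -0.59 (unadjusted p 0.0159, adjusted p 0.27) in PIR- cells. Of all genes, 0.903% were called in PIR+ cells (0.440% higher and 0.462% lower, and after scaling 0.374% and 0.638%). In PIR- cells 1.30% were called (1.08% higher and 0.220% lower, and after scaling 1.03% and 0.661%). Rag2 was 17.6, 13.7 and 22.1 in PIR+ KO, against 12.1, 10.5 and 11.5 in PIR+ wt, so the lowest KO library was above the highest wild-type library. Values that did not overlap in this direction were found for 8.04% of the genes tested. The ratio of means was 1.57 and the log2 fold change 0.58 ± 0.26, with an unadjusted p of 0.0296 and an adjusted p of 0.628 in limma, and the authors' deposited table gives a DESeq2 p-value of 0.164. In PIR- cells the Rag2 fold change was -0.27 ± 0.26 (limma, adjusted p 0.671). The difference between these 2 effects was 0.86 ± 0.37, with an unadjusted p of 0.0237 and an adjusted p of 0.707 in limma, so a KO effect on Rag2 that differs between the subsets did not pass the test. After scaling that difference was 0.96, with an unadjusted p of 0.00386 and an adjusted p of 0.213 in limma. In this test of the difference 0.572% of all genes were called (0.110% positive and 0.462% negative, and after scaling 0.286% and 0.462%).

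Rag1 was not called between the genotypes, with a log2 fold change of KO over wild type of -0.06 ± 0.24 in PIR+ cells (limma, adjusted p 0.992) and 0.14 ± 0.24 in PIR- cells (limma, adjusted p 0.841). The difference between the 2 KO effects was -0.20 ± 0.34 (limma, adjusted p 0.982). Xrcc5 was 10.1, 4.6 and 4.4 in PIR- KO, against 3.2, 3.9 and 3.9 in PIR- wt, with no overlap, a log2 fold change of 0.58 ± 0.37 and an adjusted p of 0.477 in limma. Values that did not overlap in this direction were found for 14.4% of the genes tested. After scaling Xrcc5 was 12.52, 5.09 and 4.14 in PIR- KO, against 4.34, 5.13 and 4.4 in PIR- wt, which overlap. The scaled log2 fold change was 0.42 (limma, adjusted p 0.677). Lig4 was 2.6, 2.3 and 2.9 in PIR- KO, against 3.7, 3.1 and 6.2 in PIR- wt. These deposited values do not overlap, on an estimated 13 molecules in PIR- KO and 19 in PIR- wt. In this direction 1.01% of the genes tested did not overlap. Lig4 was too low to be among the genes tested, so that share is not a background for it. In the fit of all genes above 0, its log2 fold change of KO over wild type in PIR- cells was -0.53 (limma, adjusted p 0.773). The fold changes of Xrcc6 and Dclre1c between the genotypes lay between -0.38 and 0.14 on the deposited scale.

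Among other genes of the pathway, 3 of the 5 tested partners of the recombinase were called lower in PIR+ wt, as Rag1 and Rag2 were. In PIR+ KO 1 of the 5 was called lower (3 in each genotype after scaling). Kpna2 (-0.42), Hmgb2 (-0.31) and Skp2 (-0.16) also had negative fold changes in KO that were not called, and Vprbp (0.42) went the other way. The partners of end joining were too low to test. The lists held 56 genes of the table, 30 of which were tested. In wild type, PIR+ against PIR- gave 3 called higher and 11 called lower, with a median log2 fold change of -0.23. In KO it gave 2 called higher and 8 called lower, with a median of 0.03. Of all genes tested, 40.6% were called higher and 3.72% lower in wild type, and 22.5% higher and 2.97% lower in KO, with medians of 0.51 and 0.39. KO against wild type gave 0 calls among the 30 in either subset by limma on the deposited scale, with 1 gene at an unadjusted p under 0.05 in PIR+ cells and 3 in PIR- cells. No share of all genes at that unadjusted p was counted to set beside the 30. After scaling, 2 were called higher and 15 lower in wild type, and 1 higher and 12 lower in KO. Of all genes tested, 11.5% were called higher and 11.0% lower in wild type, and 8.12% and 7.51% in KO. The KO effects then gave 1 call in PIR+ cells, Ets1 (-0.88, limma, adjusted p 0.014), 1 in PIR- cells, Hmgb2 (-0.45, limma, adjusted p 0.00608), and 1 in the difference of the KO effects, also Hmgb2 (0.61, limma, adjusted p 0.0197).

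The 3 recombinase partners called in wild type are named after their values were seen. Hmgb1 and Hmgb2 encode DNA-bending proteins that assist the recombinase. Hmgb2 was 163 ± 30.7 in PIR+ KO and 135 ± 9.3 in PIR+ wt, against 203 ± 38.5 in PIR- KO and 237 ± 20.4 in PIR- wt (SD, n = 3 each), and its fold change was -0.31 ± 0.18 in KO (limma, adjusted p 0.173) and -0.81 ± 0.18 in wild type (limma, adjusted p 0.000137). Hmgb1 was 249 ± 24.8 in PIR+ KO and 233 ± 24.9 in PIR+ wt, against 361 ± 63.7 in PIR- KO and 370 ± 55.2 in PIR- wt, and its fold change was -0.53 ± 0.17 in KO (limma, adjusted p 0.015) and -0.66 ± 0.17 in wild type (limma, adjusted p 0.00112). Kpna2, an importin known to bind RAG1, was lower in wild type with -0.63 ± 0.21 (limma, adjusted p 0.0121). After scaling all 3 were called lower in both genotypes, with Hmgb2 at -0.71 in KO and -1.32 in wild type, Hmgb1 at -0.93 in KO and -1.18 in wild type, and Kpna2 at -0.82 in KO and -1.14 in wild type (limma, largest adjusted p 0.000485). Skp2, a ubiquitin ligase subunit known for the degradation of RAG2, was 16.9 ± 5.84 in PIR+ KO, 18.8 ± 3.93 in PIR+ wt, 18.4 ± 1.99 in PIR- KO and 16.2 ± 2.08 in PIR- wt, and was not called in either genotype. Both Hmgb genes are also known for high levels in dividing cells. The sum of 7 proliferation genes was 492.7 to 682.2 in PIR+ KO, 482.9 to 514.5 in PIR+ wt, 579.8 to 785.5 in PIR- KO and 563.1 to 657.2 in PIR- wt. Its genes did not move together on the deposited scale. In PIR+ wt Mki67 (-0.80), Ccna2 (-0.76), Top2a (-0.64) and Ccnb1 (-0.62) were called lower, whereas Mcm2 (0.58) and Mcm5 (0.48) were called higher (limma). In PIR+ KO only Mcm5 was called (0.53, higher). After scaling Mcm2 and Mcm5 were not called in either genotype, and the rest were called lower in both. The part of proliferation in the values of both Hmgb genes was not tested.

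The 7 end-joining partners described here, which include the XLF gene Nhej1, the end-processing genes Aplf and Aptx and the polymerase genes Polm and Poll, all missed the filter, with means of at most 7.87 in any group. Polm was listed at 0 in all 6 PIR- libraries and averaged 0.667 in PIR+ KO and 0.433 in PIR+ wt, near the value of 1 molecule. Of 13 genes of the break response, 8 were tested. In wild type H2afx, the histone variant marked at breaks, was lower with -0.64 ± 0.22 (limma, adjusted p 0.0135) and Trp53bp1, a chromatin factor that favours end joining, was higher with 0.93 ± 0.37 (limma, adjusted p 0.0324). After scaling H2afx was called lower in KO (-0.69, adjusted p 0.00625), where it had not been called on the deposited scale (-0.30, adjusted p 0.302), and in wild type (-1.15), and Trp53bp1 was not called (0.48 in wild type, adjusted p 0.394). Parp1 of this list was also called lower after scaling, at -0.86 in KO (limma, adjusted p 3.33e-07) and -0.93 in wild type (limma, adjusted p 5.19e-08). In the average over genotype on the deposited scale, Parp1 was also called lower (-0.44, limma, adjusted p 0.00305) and Rif1 higher (0.43, limma, adjusted p 0.0186). Rif1 was not called in the average after scaling (-0.02, limma, adjusted p 0.921). No gene of this list was called in KO on the deposited scale. Atm, the kinase that responds to the breaks, was 10.7 ± 0.635 in PIR+ KO, 7.7 ± 2.31 in PIR+ wt, 8.8 ± 0.2 in PIR- KO and 7.73 ± 1.36 in PIR- wt, and was not called. Neither of the 2 tested genes of homologous recombination (Brca1 and Bard1) and none of the 3 of other end joining (Lig1, Lig3 and Xrcc1) was called by limma in either genotype on the deposited scale. Lig3 was called in the average over genotype (0.55 ± 0.23, limma, adjusted p 0.0333), where 55.0% of all genes were called higher, and was not called after scaling (0.13, adjusted p 0.693). After scaling Lig1 (-0.88, limma, adjusted p 0.000479) and Xrcc1 (-0.84, limma, adjusted p 0.046) were called lower in PIR+ wt.

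Among the pathway lists, the largest differences were in transcription factors with known roles in early lymphocytes, of which 12 of 18 were tested. Some B lineage markers differed more, such as Igll1 (-7.81 in KO, limma). In each genotype 7 were called lower and 2 higher in PIR+ cells, with a median log2 fold change of -1.10 in KO and -0.87 in wild type. Of all genes tested, 2.97% were called lower and 22.5% higher in KO, and 3.72% and 40.6% in wild type. Lef1, a Wnt pathway factor of pro-B cells, was listed at 0 in all 3 PIR+ KO libraries and reached 1.3 in 1 of the PIR+ wt libraries, against 33.4 to 61.7 in PIR- KO and 41.3 to 50.4 in PIR- wt. Foxo1, known as an activator of Rag transcription, was 4.6 ± 1.95 in PIR+ KO and 4.33 ± 0.404 in PIR+ wt, against 34 ± 9.89 in PIR- KO and 39.9 ± 3.72 in PIR- wt. Its fold change was -2.68 ± 0.29 in KO (limma, adjusted p 5.91e-13) and -2.94 ± 0.29 in wild type (limma, adjusted p 4.54e-15). Ebf1, a B lineage specification factor that is also in the B marker list, was 0.833 ± 0.351 in PIR+ KO and 1.93 ± 1.64 in PIR+ wt, against 15.6 ± 1.01 in PIR- KO and 16 ± 0.896 in PIR- wt. Its fold change was -3.19 ± 0.40 in KO and -2.67 ± 0.40 in wild type, with adjusted p of 2.08e-10 and 4.44e-08 in limma. Lef1, Foxo1 and Ebf1 were thus lower in the same libraries in which Rag1 was lower. Rag2 was not called lower in PIR+ KO (-0.17, limma, adjusted p 0.636). The part of these factors in the Rag1 and Rag2 values was not tested.

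Ets1 and Bach2, the next by size among the factors lower in PIR+ cells, fell by 2.50 and 2.44 on the log2 scale in PIR+ KO and by 1.63 and 1.55 in PIR+ wt, each relative to PIR- cells of the same genotype (limma, largest adjusted p 0.000346). Sfpi1, which encodes the myeloid and lymphoid factor PU.1, went the other way. It was 60.6 ± 9.54 in PIR+ KO and 51.9 ± 5.4 in PIR+ wt, against 16.1 ± 2.95 in PIR- KO and 8.93 ± 1.2 in PIR- wt, with fold changes of 1.85 ± 0.24 in KO and 2.42 ± 0.24 in wild type (limma, adjusted p 2.71e-10 and 1.97e-15). The myeloid marker list moved with it, with sums of 82.6 to 144.3 in PIR+ KO and 91.2 to 122.6 in PIR+ wt, against 26.7 to 55.5 in PIR- KO and 7.1 to 22.4 in PIR- wt. Pax5, a factor of committed B cells, was listed at 0 in all PIR+ libraries and averaged 0.4 in PIR- KO and 0.633 in PIR- wt with no library above 1.1.

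**Figure D4:**
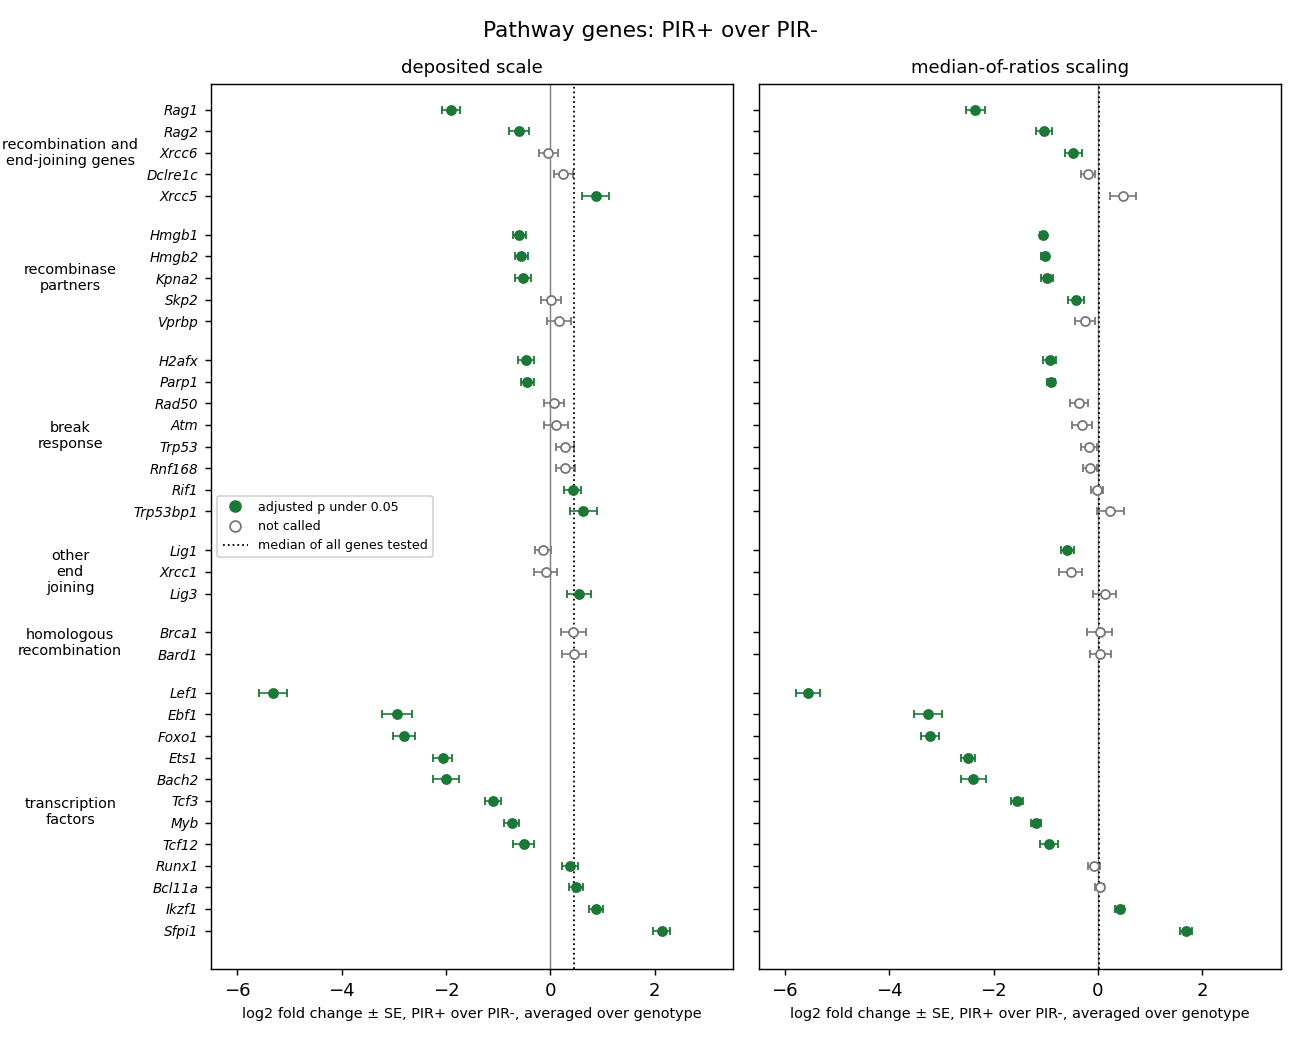
Log2 fold change of PIR+ over PIR- averaged over genotype, with its SE, for every tested gene of the 6 lists, on the deposited scale (left) and after median-of-ratios scaling (right). Filled points have an adjusted p under 0.05 in limma, and the dotted line is the median of all genes tested. Rag1 (-1.91 and -2.35) is the lowest point outside the transcription factors, and the point of Lef1, listed at 0 in PIR+ KO, depends on the added constant.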

How the data were processed

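Per the labels, 100 cells per tube were lysed with ERCC spike-in RNA and reverse transcribed with barcoded oligo-dT primers and template switching. TopHat2, DESeq2 and genome build mm10 are named in the submitters' processing notes, with no versions, and the counting step is not given in the sources used here. The deposited table holds normalized molecule counts, a signal scale rounded to 1 decimal by the authors, and 2 columns of p-values that the authors obtained with DESeq2, whose header does not say whether they are adjusted. Of values under 15, 93.0% to 94.2% per library lie within 0.055 of a multiple of the value of 1 molecule, so whole counts are not claimed, and molecule numbers (208552 to 442843 per library) are estimates.

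Of the 23420 genes, 14177 were above 0 in some library, and the 4542 at 10 or more in at least 3 libraries were tested with limma 3.58.1 (R 4.3.3, trended prior, 4 group means, log2(value + 1)). The added 1 makes fold changes of low genes smaller. Benjamini-Hochberg adjusted p under 0.05, over all genes tested, was called. The fit with median-of-ratios scaling was tested on simulated data, for KO over wild type in PIR+ cells only. The fit on the deposited scale and the other comparisons were not tested in that way. Alternatives were median-of-ratios scaling, an added constant of 0.1, no filter, the replicate number or the embryonic day as a term, subsets of libraries, separate fits per comparison, and leaving out each library. All 9 genes are named, with list genes called (at most 6 per comparison, by size of fold) and the 5 genes most correlated with Rag1, Rag2 and Dntt (which has no variance). Other list genes were named after their values were seen. Libraries with Hba-a1 above 200 were taken as globin-rich. The 9 genes and the lists were chosen with earlier results of these data known, and some list genes are not reported here and were left out of the lists' counts and sums. Locations are from GENCODE M21 (GRCm38) and promoters from RefSeq (GRCm38.p6). Figures used Python 3.11.15 and matplotlib 3.10.9.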

Additional observations from a re-analysis of the deposited data

How the results depend on the processing

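Rag1 was called lower in PIR+ cells in every alternative run, at -2.42 to -1.85 (log2) in KO and -2.31 to -1.33 in wild type. Members called for PIR+ against PIR- were 2 in KO where markers field and title match (Xrcc5 joined at 1.42, limma, adjusted p 0.0477), 1 in wild type within day E14.5, and 1 in the average over genotype within day E12.5 and within day E14.5. The day subsets were chosen after seeing the data. These subsets leave 1 library in some groups, assumed to vary like the others. After scaling, the members called were Rag1 and Rag2 in wild type, without Xrcc5, and Rag1, Rag2 and Xrcc6 in the average over genotype. No count of members called changed when any 1 library was left out (1 in KO, 3 in wild type, 3 averaged, 0 for the KO effects and their difference). The averaged Rag2 call was lost in the markers-field subset (-0.27), without globin-rich libraries (-0.44) and within each day (-0.51 and -0.50).

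Counts of all genes called changed more. For PIR+ against PIR- in KO (1158), they were 710 after scaling, 576 without globin-rich libraries, 529 within day E14.5 and 662 to 1418 with 1 library left out (662 without replicate 3 of PIR+ KO and 720 without replicate 1 of PIR- KO). In wild type (2015) they were 1025 after scaling, 1053 in the markers-field subset, 700 without globin-rich libraries, 893 within day E12.5 and 1320 to 2083 with 1 library left out (1320 without replicate 3 of PIR+ wt). Averaged (2706), they were 1344 after scaling and 1441 without globin-rich libraries. For KO against wild type in PIR+ (41), they were 27 without globin-rich libraries, 15 within day E12.5 and 8 within day E14.5. In PIR- (59), they were 31 with no filter, 105 in the markers-field subset, 35 without globin-rich libraries, 28 fitted on these groups alone, 12 within day E12.5, 36 within day E14.5 and 33 to 88 with 1 library left out (33 without replicate 3 and 37 without replicate 2 of PIR- KO). For the difference of KO effects (26), they were 3 with no filter, 10 in the markers-field subset, 6 without globin-rich libraries, 4 within day E12.5, 2 within day E14.5 and 15 to 33 with 1 library left out (15 without replicate 2 of PIR+ wt). The causes were not tested.

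Signs turned only for fold changes that were not called. KO over wild type in PIR+ turned for Dclre1c within day E14.5 (-0.33; -0.15 to 0.25 with 1 library left out), for Rag1 (-0.47 to 0.22 with 1 left out) and for Xrcc5 with day as a term (0.16), in the markers-field subset (0.31), within day E12.5 (0.31) and day E14.5 (0.0078; -0.31 to 0.14 with 1 left out). In PIR- it turned for Dclre1c (-0.059) and Rag1 (-0.074) after scaling, for Rag1 within day E12.5 (-0.15), and for Rag2 at 0.11 in the markers-field subset, without globin-rich libraries and within day E14.5. PIR+ over PIR- in KO turned for Dclre1c after scaling (-0.16) and within day E14.5 (-0.027; -0.024 to 0.37 with 1 left out), for Rag2 in the markers-field subset (0.13) and within day E12.5 (0.20), and for Xrcc6 after scaling (-0.34), in the markers-field subset (-0.045), without globin-rich libraries (-0.17) and within day E14.5 (-0.080; -0.068 to 0.15 with 1 left out). In wild type it turned for Dclre1c after scaling (-0.22) and Xrcc6 within day E12.5 (0.10; -0.44 to 0.067 with 1 left out). The Rag1 difference of KO effects was -0.60 to 0.087 with 1 library left out.

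Replicate numbers did not pair the libraries. Of 18 same-number pairs, 1 had deviations correlated above 0.1 (median -0.032), against 3 of 36 other pairs (median 0.015). With the replicate block, KO against wild type gave 62 calls in PIR+ and 209 in PIR-, against 41 and 59 without it. The calls of the 5 genes were as without the block. Xrcc4, Lig4 and Prkdc are limited by depth, at 42 to 101 estimated molecules over 12 libraries.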
